A study of Homo sapiens with 33 samples.

Results

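The S100 calcium-binding proteins described here are 8 genes, S100A4, S100A6, S100A8, S100A9, S100A10, S100A11, S100A12 and S100P, chosen by name out of 19775 genes on the array. The cells were THP-1, an established human line of monocytic leukaemia, and 33 wells were each measured on an Affymetrix HG-U133 Plus 2 array. At 40 h there were 6 vehicle wells and 5 wells with all-trans retinoic acid (RA, 20 nM), given at the start and again at 16 h. Another 5 wells had tumor necrosis factor alpha (TNF, 5 ng/ml) for 24 h. The remaining 5 had RA for 40 h and TNF for the last 24 h. A time course added 2 wells after 2 h of RA, 2 after 6 h, 3 after 16 h and 5 vehicle wells harvested at 16 h. Ethanol was at 0.1% in the wells of every group, with or without RA or TNF. All wells came from 1 leukaemia line, so p-values measure the spread between wells of that line and not between donors.

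S100 proteins are small proteins with a pair of EF hands, the helix-loop-helix motif that holds calcium, and they work mostly as dimers that bind other proteins when calcium rises. S100A8 and S100A9 pair into calprotectin, a major cytosolic protein of neutrophils and blood monocytes that is released in inflammation and binds the receptors TLR4 and RAGE (gene AGER). S100A12 is a further calgranulin of the same cells, while S100A10 does not bind calcium and joins annexin A2 in a complex at the cell membrane that takes up plasminogen. RA drives immature myeloid cells towards maturation and TNF is an inflammatory cytokine, so the comparisons ask how each agent, and both together, set the levels of these transcripts.

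Signals are in units of the array software, scaled to the same trimmed mean on every array, and are given to show each well. Fold changes and tests use the deposited log2 values, which are centred on the median of each array. Levels of different genes come from different probes and are not compared. Because RNA came from whole wells, fewer cells that express a gene and less RNA per cell cannot be told apart. The arrays fall into 2 runs of record numbers, array set 1 (12 arrays, 3 from each 40 h group) and array set 2 (21 arrays, which hold all of the time course), and the set was a covariate in the 40 h comparisons. Array medians ran from 18.9 to 45.2 units. Of 9 monocyte markers on the array, 8 were on average above the array median, with FCER1G the brightest and CD14, ITGAM, CSF1R and LYZ among them. Of 8 granulocyte markers, which mark the lineage richest in calgranulins, 3 were above the array median (ELANE, MPO and CSF3R). CEACAM8, LTF, CAMP, FCGR3B and MMP8 were not. ELANE was the brightest at 9884 units on average, while the median marker of the list stood at 20.3 units, against 733 for the monocyte list. The granulocyte list summed to between 4694 and 18812 units on an array and the monocyte list to between 10447 and 24445.5. Lymphocyte markers summed to between 269 and 627 units on an array, of which NKG7 was the brightest at 237 on average, and the erythroid and megakaryocyte list summed to between 43.6 and 162.

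The calgranulin genes lie side by side on chromosome 1 in the order S100A9, S100A12, S100A8 in the RefSeq gene table, S100A10 and S100A11 are neighbours, S100A4 and S100A6 flank S100A5, and S100P is on chromosome 4. The 250 bases before the start site of 4 genes are shown because 3 of them are the neighbouring calgranulins and the last, S100A10, had the smallest adjusted p under RA. They are taken from the RefSeq table of build GRCh38.p14 and printed in the direction of transcription. Capitals mark matches, on either strand, to the TATA box (TATAAA), a C/EBP motif (TTGCNNAA), a PU.1 core (GAGGAA), an AP-1 motif (TGANTCA) or a nuclear receptor hexamer (AGGTCA, the variant GGGTCA, the variant AGTTCA and the variant GGTTCA). An NF-kB motif (GGNNTTTCC) was also searched. For S100A8, the most upstream of 3 listed start sites is shown.
S100A9, chr1:153357604-153357853, plus strand: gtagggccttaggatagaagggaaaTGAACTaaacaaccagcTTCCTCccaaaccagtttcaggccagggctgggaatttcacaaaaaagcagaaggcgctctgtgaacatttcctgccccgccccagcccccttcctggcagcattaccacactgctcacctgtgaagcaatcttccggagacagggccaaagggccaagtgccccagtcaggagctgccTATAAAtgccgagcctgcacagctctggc
S100A12, chr1:153375622-153375871, minus strand: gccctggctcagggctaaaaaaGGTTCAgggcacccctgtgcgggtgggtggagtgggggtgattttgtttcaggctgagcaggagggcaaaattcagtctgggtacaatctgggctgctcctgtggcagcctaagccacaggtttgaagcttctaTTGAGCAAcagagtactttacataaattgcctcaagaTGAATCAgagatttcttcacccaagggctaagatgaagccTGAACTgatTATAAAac
S100A8, chr1:153391189-153391438, minus strand: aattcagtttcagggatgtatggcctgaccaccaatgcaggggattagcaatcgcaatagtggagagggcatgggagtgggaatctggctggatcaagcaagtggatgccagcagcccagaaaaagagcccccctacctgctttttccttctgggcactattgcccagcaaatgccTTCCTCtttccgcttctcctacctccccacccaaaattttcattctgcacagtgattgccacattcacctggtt
S100A10, chr1:151993860-151994109, minus strand: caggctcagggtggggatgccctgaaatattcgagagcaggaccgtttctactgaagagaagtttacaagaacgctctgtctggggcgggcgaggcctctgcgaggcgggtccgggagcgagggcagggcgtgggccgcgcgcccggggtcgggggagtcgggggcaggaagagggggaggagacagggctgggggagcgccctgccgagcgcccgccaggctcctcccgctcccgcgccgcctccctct

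S100A9 held a TATA box 29 bases before its start site, a PU.1 core 208 bases before it and a nuclear receptor hexamer 225 bases before it. S100A12 held the C/EBP and AP-1 motifs 94 and 57 bases before its start, a TATA box 8 bases before it, and hexamers 228 and 17 bases before it. In S100A8 the PU.1 core lay 74 bases before the site shown, and the next listed start site, further downstream, had a TATA box 29 bases before it. S100A10 held none of the letters searched. Of 35116 promoters of this length, 10.7% held the TATA box, 9.05% the C/EBP motif, 23.6% the PU.1 core, 6.57% the AP-1 motif, 5.48% the NF-kB motif and 33.8% at least 1 hexamer, so each match is common and describes the letters only.

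All 8 genes had a probe set bright enough to be tested, and 3 further probe sets, of S100A6, S100A8 and S100A10, fell below the brightness filter and are described by their values only. At 40 h of RA, 4 of the 8 genes fell (S100A10, S100A8, S100A12 and S100A6) and 0 rose. Over all 22749 probe sets tested there, 2.35% were called higher and 0.936% lower (limma with Benjamini-Hochberg adjustment, adjusted p under 0.05, the call rule throughout). The median log2 change of the 8 was -0.51, against 0.02 over all probe sets. Under TNF, S100A9 rose and S100A4 and S100A6 fell, where 5.31% of all probe sets were called higher and 3.25% lower. With RA plus TNF against vehicle, 1 rose (S100A9) and 3 fell (S100A10, S100A6 and S100A4), beside 10.3% higher and 5.92% lower over all. The RA and TNF comparisons with vehicle share the vehicle arrays.

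**Figure D1:**
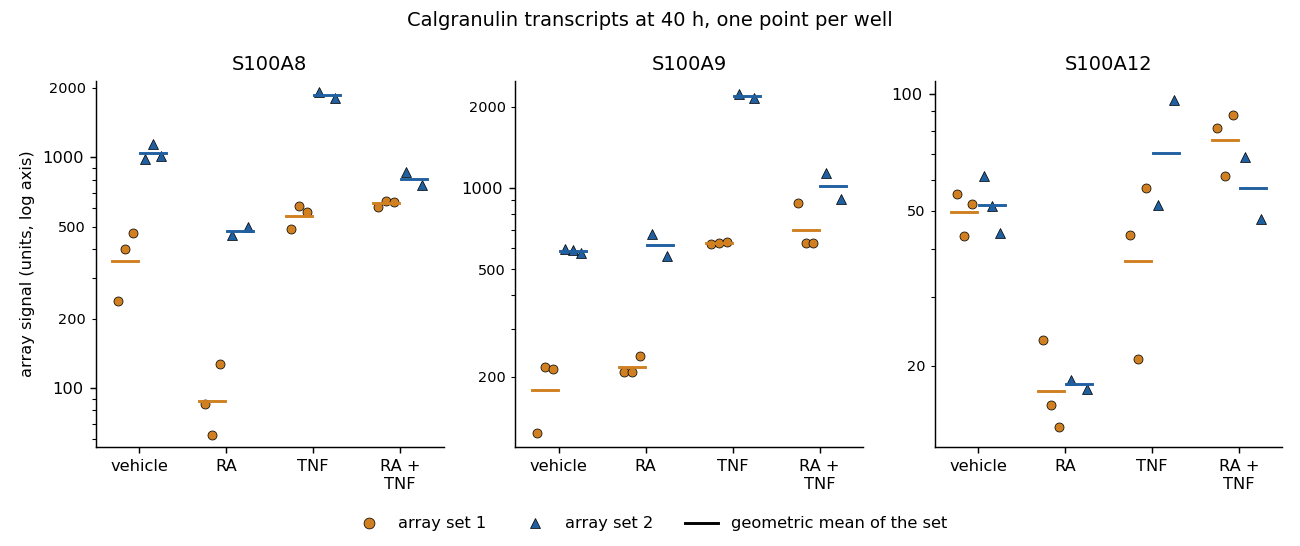
Signals of S100A8, S100A9 and S100A12 in every well of the 4 groups at 40 h, on log axes in array units, with circles for array set 1, triangles for array set 2 and a bar at the geometric mean of each set in a group. Within each set the S100A8 wells with RA lie below the vehicle wells, the S100A9 wells with TNF lie above them, and the 5 S100A12 wells with RA, at 13.9 to 23.3 units, are below all 6 vehicle wells.

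S100A8, the calprotectin subunit also called calgranulin A, was measured by probe set 202917_s_at. Vehicle wells had 239, 399 and 468 units in array set 1 and 988, 1146 and 1013 in set 2. RA wells had 85.0, 62.3 and 127 units in set 1 and 463 and 499 in set 2. The RA wells lay below every vehicle well of their own set, while the ranges of the pooled groups overlapped, because set 2 was higher than set 1 in every group. The fall under RA was 3.10-fold (log2 -1.63 ± 0.27 SE, n = 5 against 6, limma adjusted p = 9.58e-05). It was -2.09 within set 1 and -0.96 within set 2, called in each (adjusted p = 5.35e-05 and 0.00497).

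TNF alone left S100A8 at 488, 614 and 578 units in set 1 and at 1912 and 1808 in set 2. Each of these wells was above all vehicle wells of its set, yet the change of 0.77 ± 0.27 did not pass (adjusted p = 0.0732, 95% interval 0.22 to 1.31), although it did within set 2 (0.90, adjusted p = 0.0076), on recovered signals (0.72, adjusted p = 0.0469) and in 2 fits that left out a well of another group, RA well 2 or RA plus TNF well 5. With RA and TNF together the wells had 609, 646 and 639 units in set 1 and 863 and 758 in set 2. TNF thus came with a 4.26-fold higher S100A8 level in RA-treated cells (2.09 ± 0.28, n = 5 against 5, adjusted p = 1.6e-06), by 3.06 in set 1 and by 0.64 in set 2, where alone it did not pass (adjusted p = 0.117). Against vehicle, the combined treatment gave 0.46 ± 0.27 (adjusted p = 0.281), and the sets ran in opposite directions, 0.97 in set 1 and -0.32 in set 2. The interaction, which is the RA effect with TNF minus the RA effect without it, was 1.33 ± 0.39 and did not pass (adjusted p = 0.194, and 0.0482 without RA well 5). It was 2.39 in set 1 (adjusted p = 0.00701) and -0.26 in set 2 (adjusted p = 0.899).

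S100A9, the partner subunit of calprotectin, did not follow S100A8 under RA. Its probe set 203535_at read 123, 216 and 213 units in vehicle wells of set 1 and 595, 588 and 573 in those of set 2. RA wells had 208, 208 and 239 units in set 1 and 677 and 559.5 in set 2. In both sets these signals overlapped with the vehicle wells at 40 h, while on the deposited scale the RA wells of set 2 were just above those. The change of 0.20 ± 0.21 did not pass (limma adjusted p = 0.824, 95% interval -0.23 to 0.63). TNF wells had 619, 623 and 629 units in set 1 and 2219 and 2156 in set 2, all above the highest vehicle signal at 40 h. TNF raised S100A9 3.63-fold (1.86 ± 0.21, n = 5 against 6, adjusted p = 1.04e-07), with 1.82 in set 1 and 1.98 in set 2.

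In cells with RA and TNF, S100A9 stood at 878, 626 and 626 units in set 1 and at 1136 and 907 in set 2. These signals were also above every vehicle well at 40 h, with a rise of 2.99-fold (1.58 ± 0.21, adjusted p = 8.41e-07) that was 2.11 in set 1 and 0.85 in set 2. The rise over RA alone was 2.61-fold (1.38 ± 0.22, adjusted p = 3.15e-05), with 1.89 in set 1 and 0.61 in set 2, where it did not pass (adjusted p = 0.0966). The RA effect in the presence of TNF differed between the array sets for both calprotectin subunits. Against TNF alone, the combined treatment gave 0.30 for S100A8 and 0.29 for S100A9 in set 1, neither of which passed (adjusted p = 0.691 and 0.685). In set 2 it gave -1.22 and -1.13, which both passed (adjusted p = 0.00142 and 0.00121). The pooled values were -0.31 ± 0.28 for S100A8 and -0.28 ± 0.22 for S100A9 (adjusted p = 0.645 and 0.578), and the difference between the sets was not tested.

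**Figure D2:**
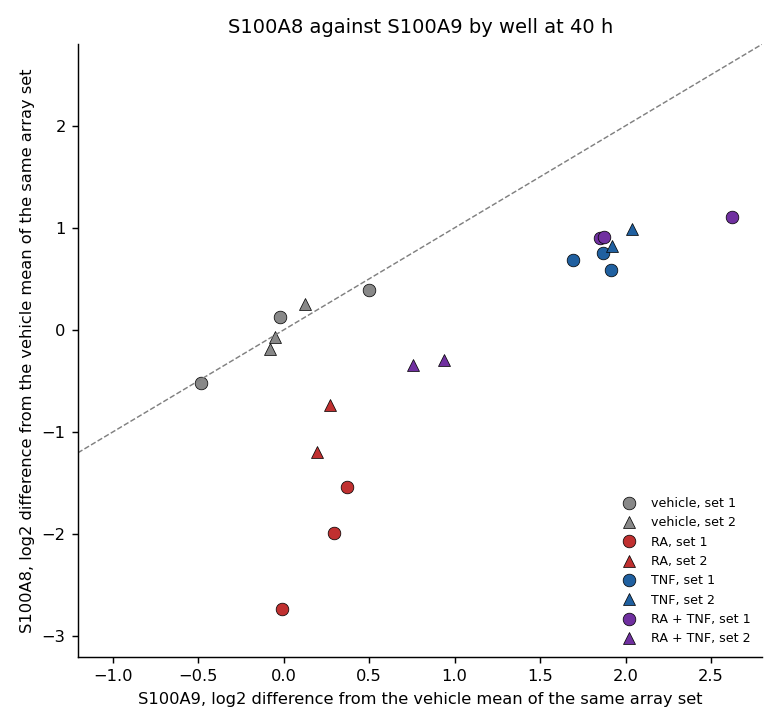
Log2 difference of S100A8 (vertical) against that of S100A9 (horizontal) from the vehicle mean of the same array set, 1 point per well at 40 h, with the dashed line where both differences are equal. Vehicle wells scatter along the line, and all 15 treated wells lie below it, the RA wells of set 1 by the most.

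The gap between the subunits was examined well by well, as the S100A8 value minus the S100A9 value on the same array, a measure chosen after the data were seen. Each group with RA, TNF or both lay below the vehicle group with no overlap. The S100A8 change was smaller than the S100A9 change by 1.81 under RA (-1.81 as S100A8 minus S100A9, n = 5 against 6), and the difference was -1.12 under TNF and -1.15 with both. Each had an exact two-sided permutation p of 0.005 within array sets, the smallest that 200 arrangements can give, and 0.0136 after Benjamini-Hochberg adjustment over 9 comparisons. RA plus TNF against TNF gave -0.03 (exact two-sided permutation p = 0.783, adjusted p = 0.881), with overlapping groups. RA plus TNF against RA gave 0.71 and did not pass (exact permutation p = 0.05, adjusted p = 0.0643), with 1.16 in set 1 and 0.03 in set 2.

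S100A12, a calgranulin that binds RAGE, was near the array median in brightness, where the size of a change is uncertain. Vehicle wells had 55.1, 43.1 and 52.0 units in array set 1 and 61.4, 51.5 and 43.8 in set 2. RA wells had 23.3, 15.9 and 13.9 in set 1 and 18.4 and 17.5 in set 2, so the groups did not overlap. The fall was 2.81-fold (-1.49 ± 0.41, n = 5 against 6, adjusted p = 0.0351). It was lost without any 1 of 7 of the 11 wells compared, with values from -1.62 to -1.41 and adjusted p-values from 0.0292 to 0.0797 when single wells were left out. It was also lost without the filter on dim probe sets (adjusted p = 0.0763) and within either array set (-1.60 and -1.36, adjusted p = 0.416 and 0.171).

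TNF wells ranged from 20.8 to 96.2 units in S100A12 (median 51.8) around the vehicle level, with a change of -0.02 ± 0.41 (adjusted p = 0.99). With RA plus TNF the 5 wells had 81.7, 61.5, 88.0, 68.6 and 47.7 units, all above every RA well. The level was 4.10-fold that of RA alone (2.04 ± 0.43, adjusted p = 0.00117), with 2.35 in set 1 and 1.56 in set 2, where it did not pass (adjusted p = 0.126). It did not differ by test from TNF alone (0.56 ± 0.43, adjusted p = 0.556) or vehicle (0.55 ± 0.41, adjusted p = 0.422). The interaction was 2.05 ± 0.59 and did not pass (adjusted p = 0.183). Among monocyte markers, 4 of 8 tested rose under RA, 3 of 8 under TNF and 3 of 8 with both agents against RA, and 0 fell in any of the 3, where 2.35%, 5.31% and 6.28% of all probe sets were called higher. Of 3 granulocyte markers tested, 1 rose under RA and 0 fell, 1 fell under TNF and 0 rose, and 2 fell with both agents against RA and 0 rose (list median -1.03), where 3.25% and 3.92% of all probe sets were called lower under TNF and against RA. Whether these shifts bear on the calgranulin values was not tested.

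The level of the calprotectin transcripts also followed the array set. At the same treatment, set 2 was above set 1 by 1.92 ± 0.20 on the log2 scale for S100A8 (adjusted p = 7.87e-09), by 1.80 ± 0.16 for S100A9 (5.74e-10) and by 0.81 ± 0.12 for S100A6 (1.97e-06). Without the set as a covariate the call of S100A8 under RA was lost (-1.83, adjusted p = 0.173), as were those of S100A9 under TNF (1.68, adjusted p = 0.0771), with both agents (1.40, adjusted p = 0.109) and against RA (1.38, adjusted p = 0.192). So were the RA call of S100A12 (-1.54, adjusted p = 0.0678) and the S100A6 calls under RA, under TNF and against RA (-0.64, -0.71 and -0.54, adjusted p = 0.512, 0.196 and 0.412). The other 5 genes did not pass this test, S100A10 with 0.06 ± 0.12. The log2 ratio of the 3' to the 5' probe sets of beta-actin, a sign of RNA degradation, was 1.31 ± 0.33 over the 12 arrays of set 1 (SD, n = 12), against 0.51 ± 0.28 over the 21 of set 2 (SD, n = 21). Its part in the set difference was not tested.

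**Figure D3:**
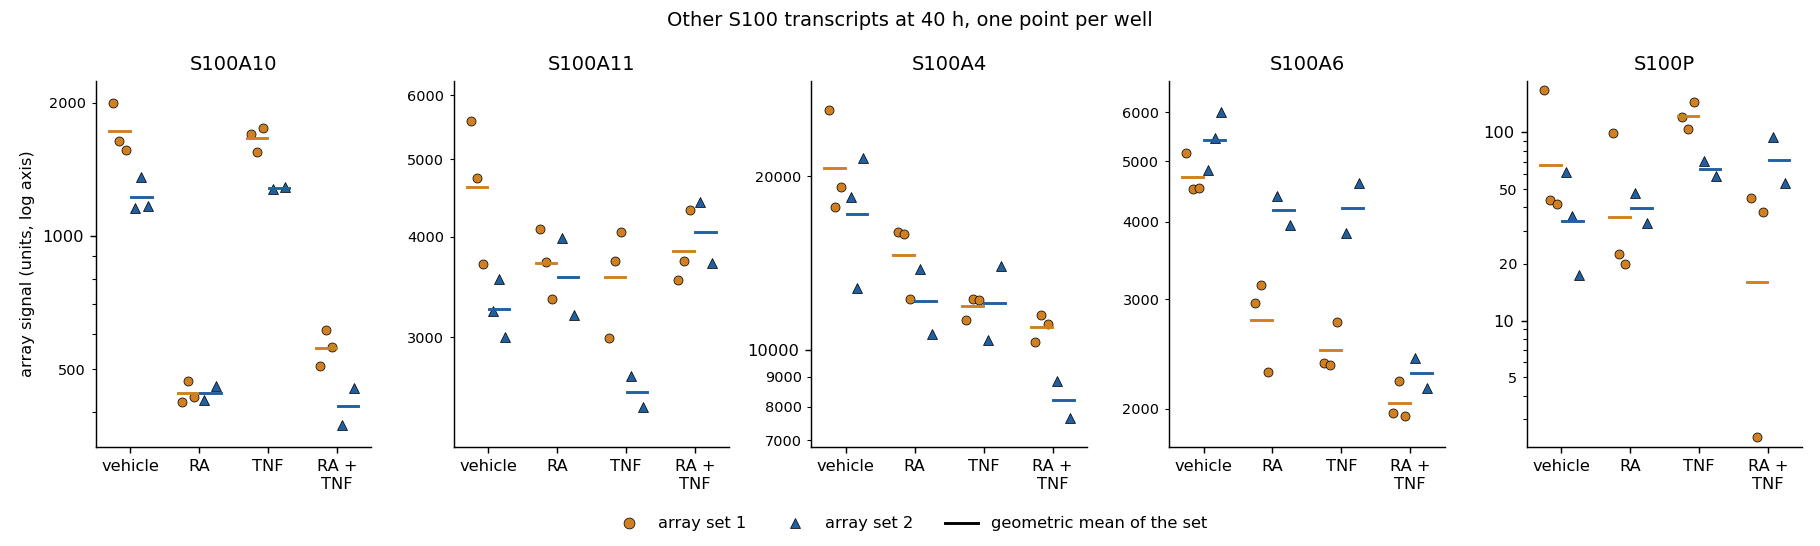
Signals of S100A10, S100A11, S100A4, S100A6 and S100P in every well at 40 h, on log axes in array units, with circles for array set 1, triangles for set 2 and bars at geometric means. All 10 wells with RA, alone or with TNF, are at 614 units or less in S100A10 and all 11 wells without it are at 1154 or more, while S100A11 shows no such split.

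S100A10, also known as p11, carried the S100 change with the smallest adjusted p under RA. Its probe set 200872_at read 1998, 1638 and 1565 units in vehicle wells of array set 1 and 1154, 1359 and 1169.8 in those of set 2. RA wells had 421, 469.5 and 433 units in set 1 and 427 and 458 in set 2, all below the lowest vehicle well. The fall was 3.30-fold (-1.72 ± 0.16, n = 5 against 6, adjusted p = 2.68e-09), and it was called in both sets (-2.04 and -1.31) and without each single well.

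TNF did not move S100A10 by test, with 1698, 1544 and 1752 units in set 1 and 1274 and 1286 in set 2 (0.06 ± 0.16, adjusted p = 0.903, 95% interval -0.27 to 0.39). With RA plus TNF the wells had 508, 614, 560.3, 374 and 453 units. They lay below every TNF well, by 2.90-fold (-1.53 ± 0.17, adjusted p = 5.59e-08), with -1.45 in set 1 and -1.66 in set 2. Of the 8 genes, S100A10 alone was called lower in RA plus TNF against TNF and none was called higher, where 2.41% of all probe sets were called lower and 3.85% higher. The combined treatment did not differ by test from RA alone (0.25 ± 0.17, adjusted p = 0.437), and the interaction was 0.19 ± 0.24 (adjusted p = 0.929, 95% interval -0.29 to 0.67). The sets differed in this comparison, since in set 1 the wells with both agents were all above the RA wells (0.55, adjusted p = 0.124) and in set 2 they were not (-0.21, adjusted p = 0.766). In order of level, RA and RA plus TNF were the low groups, vehicle and TNF the high groups, and the test within neither pair passed.

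ANXA2, the annexin that binds S100A10, fell under RA by 1.28 ± 0.15 on the log2 scale (adjusted p = 4.00e-07). Its signal was 729 ± 93.6 units in RA wells (SD, n = 5) against 1788 ± 75.1 in vehicle (SD, n = 6). Unlike S100A10 it rose under TNF (1.16 ± 0.15, adjusted p = 1.47e-06), to 3876 ± 313 units (SD, n = 5). With RA and TNF it stood at 2093 ± 366 units (SD, n = 5), lower than with TNF alone (-0.84 ± 0.16, adjusted p = 0.000543). All 3 ANXA2 probe sets are of a type whose probes can match related transcripts, and they gave RA changes of -1.28, -1.24 and -1.26. AHNAK, a giant scaffold protein that the S100A10 and annexin A2 complex binds, fell under RA (-1.39 ± 0.21, adjusted p = 1.95e-05) and was lower with RA plus TNF than with TNF alone (-1.49 ± 0.22, adjusted p = 9.03e-06).

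S100A11, which binds annexin A1, passed in none of the comparisons as fitted. Vehicle wells ranged from 3005 to 5584 units (median 3624), RA wells from 3200.3 to 4090.3, TNF wells from 2456 to 4059 and wells with both from 3534 to 4421. The 4 groups overlapped, with changes of -0.08 ± 0.17 under RA, -0.29 ± 0.17 under TNF and 0.11 ± 0.17 with both (adjusted p = 0.927, 0.344 and 0.738). Under RA the sets ran in opposite directions, -0.38 in set 1 and 0.30 in set 2, and neither passed (adjusted p = 0.689 and 0.514). RA plus TNF against TNF gave 0.39 ± 0.17 (adjusted p = 0.213), with 0.23 in set 1 and 0.64 in set 2 (adjusted p = 0.696 and 0.0871). Under TNF S100A11 passed with quantile normalization (-0.36, adjusted p = 0.0473).

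S100A6 and S100A4, known as calcyclin and metastasin, were lower with TNF and with both agents than in vehicle. S100A6 vehicle wells had 5152, 4510.3 and 4538 units in set 1 and 4844, 5457 and 6014 in set 2, and wells with RA plus TNF had 1966, 2219, 1947, 2412 and 2162. The groups did not overlap, and the fall was 2.13-fold (-1.09 ± 0.16, adjusted p = 3.77e-06), with -1.07 and -1.19 in sets 1 and 2. Under TNF alone S100A6 had 2372, 2349 and 2759 units in set 1 and 3840.3 and 4621 in set 2, a 1.55-fold fall (-0.63 ± 0.16, adjusted p = 0.00847) that was -0.91 in set 1 and -0.29 in set 2, where it did not pass (adjusted p = 0.475).

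Under RA alone S100A6 read 2963, 3169 and 2295 units in set 1 and 4405 and 3956 in set 2. These signals were all below the vehicle wells at 40 h, while the deposited values overlapped. The fall of 1.47-fold (-0.56 ± 0.16, adjusted p = 0.0451) was called in set 1 (-0.83) and not in set 2 (-0.21, adjusted p = 0.689). It was kept in 3 of the 11 fits without a single well, with adjusted p-values from 0.0215 to 0.182. Without the filter on dim probe sets it did not pass (adjusted p = 0.0764). The level with both agents was below that with RA alone (-0.54 ± 0.17, adjusted p = 0.034), a call kept in 4 of 10 such fits and lost without the filter (adjusted p = 0.0583). It was -0.24 in set 1 (adjusted p = 0.56) and -0.98 in set 2 (adjusted p = 0.00508). Against TNF alone the change of -0.46 ± 0.17 did not pass (adjusted p = 0.106). It was -0.16 in set 1 (adjusted p = 0.776) and -0.91 in set 2 (adjusted p = 0.0102), and it passed with quantile normalization (-0.55, adjusted p = 0.000533) and on recovered signals (-0.52, adjusted p = 0.0046).

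S100A4, which binds the heavy chain of non-muscle myosin, ranged from 12801 to 26086 units in vehicle (median 18818). RA wells had 15991, 15925, 12263, 13835 and 10690.2 units, TNF wells 11308, 12279.8, 12229, 10441 and 14008, and wells with both 10355, 11521, 11113, 8853 and 7638. The wells with both agents were all below the vehicle range at 40 h, while RA and TNF wells overlapped it. Vehicle wells harvested at 16 h ranged more widely, from 7612 to 23657 units, and overlapped the wells with both agents. The fall was 1.81-fold with both (-0.86 ± 0.16, adjusted p = 0.000195) and 1.55-fold under TNF (-0.63 ± 0.16, adjusted p = 0.0105). TNF alone was called in set 1 (-0.77) and not in set 2 (-0.43, adjusted p = 0.284). RA alone did not pass (-0.47 ± 0.16, adjusted p = 0.141, 95% interval -0.80 to -0.13), although it did with quantile normalization (-0.43, adjusted p = 0.000286) and on recovered signals (-0.50, adjusted p = 0.0302). Both agents together did not differ by test from TNF (-0.23 ± 0.17, adjusted p = 0.538) or RA (-0.39 ± 0.17, adjusted p = 0.158). With quantile normalization both passed (-0.35 and -0.44, adjusted p = 0.00346 and 0.000142), and on recovered signals the second did (-0.47, adjusted p = 0.0258).

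S100P, a relative of placenta and epithelial tumours, was dim and scattered. Vehicle wells ranged from 17.5 to 167 units (median 42.6), RA wells from 20.1 to 98.6, TNF wells from 58.5 to 145 and wells with both from 2.4 to 94.3. All groups overlapped, with standard errors of 0.66 on the log2 scale, and no comparison passed (RA -0.33, TNF 1.04 and both -0.60, adjusted p = 0.925, 0.403 and 0.611). With both agents the sets ran in opposite directions, -1.93 in set 1 and 1.13 in set 2, and neither passed (adjusted p = 0.203 in each). This change ran from -1.04 to 0.31 when single wells were left out.

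**Figure D4:**
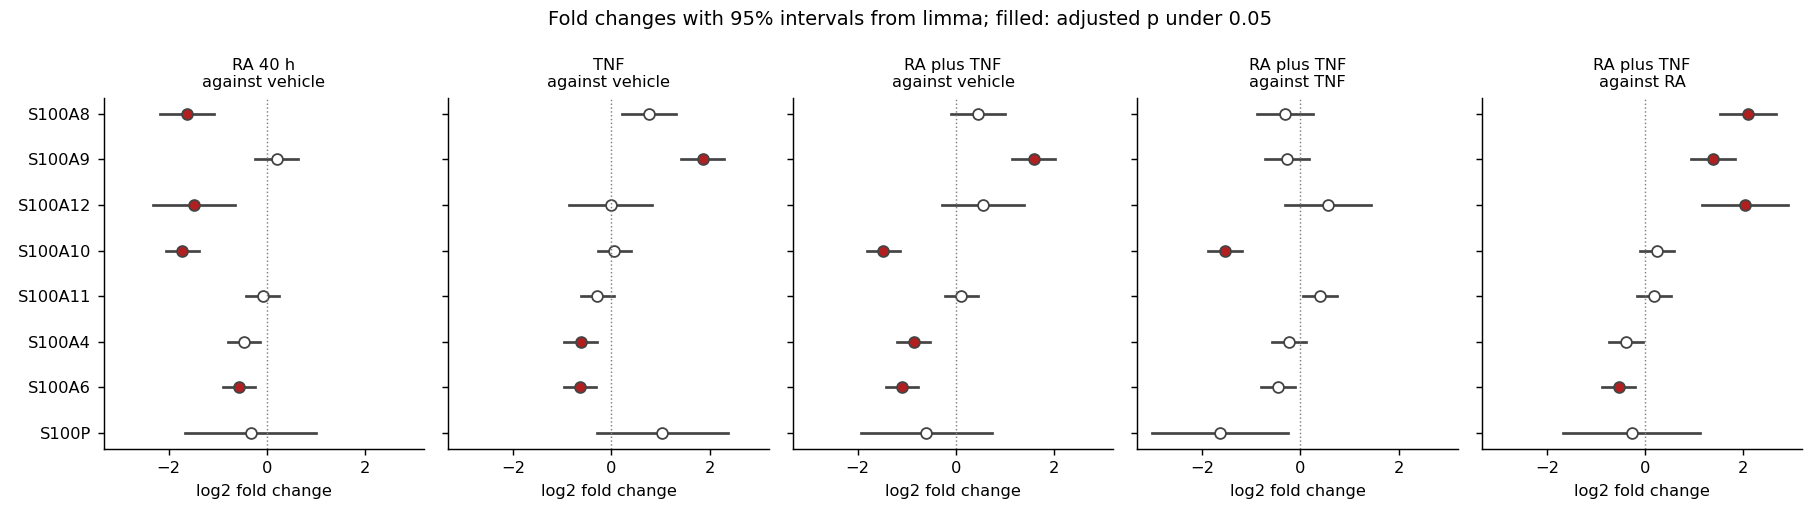
Log2 fold changes of the 8 genes (rows) in the 5 comparisons at 40 h (panels), with 95% intervals from limma and filled points where the adjusted p was under 0.05. S100A10 is filled to the left in all 3 panels that compare wells with RA to wells without it, and S100A9 is filled to the right in the 3 panels in which wells with TNF are compared to wells without it.

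Against RA alone, RA plus TNF raised 3 of the 8 genes, the calgranulins S100A8, S100A12 and S100A9, and lowered 1, S100A6, beside 6.28% of all probe sets called higher and 3.92% lower. The interaction was called for 0 of 8, where 0.167% of all probe sets were called higher and 0.119% lower. At an unadjusted p under 0.05 S100A8 and S100A12 passed it, with 95% intervals of 0.53 to 2.12 and 0.84 to 3.26, beside 7.71% of all probe sets at that threshold.

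The 3 dim probe sets gave no level to compare. The further S100A8 probe set read 1.9 to 65.8 units over all 33 wells and that of S100A6 1.7 to 50.6, and the 4 groups at 40 h overlapped in both. The further S100A10 probe set read 115, 128 and 95.2 units in the TNF wells of set 1, above 49.8, 56.9 and 8.8 in vehicle and 1.7, 1.5 and 2.8 with both agents in that set. In set 2 its TNF wells were at 4.1 and 5.7 units, below the vehicle wells at 20.4, 19.3 and 9.2, so the sets did not match.

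**Figure D5:**
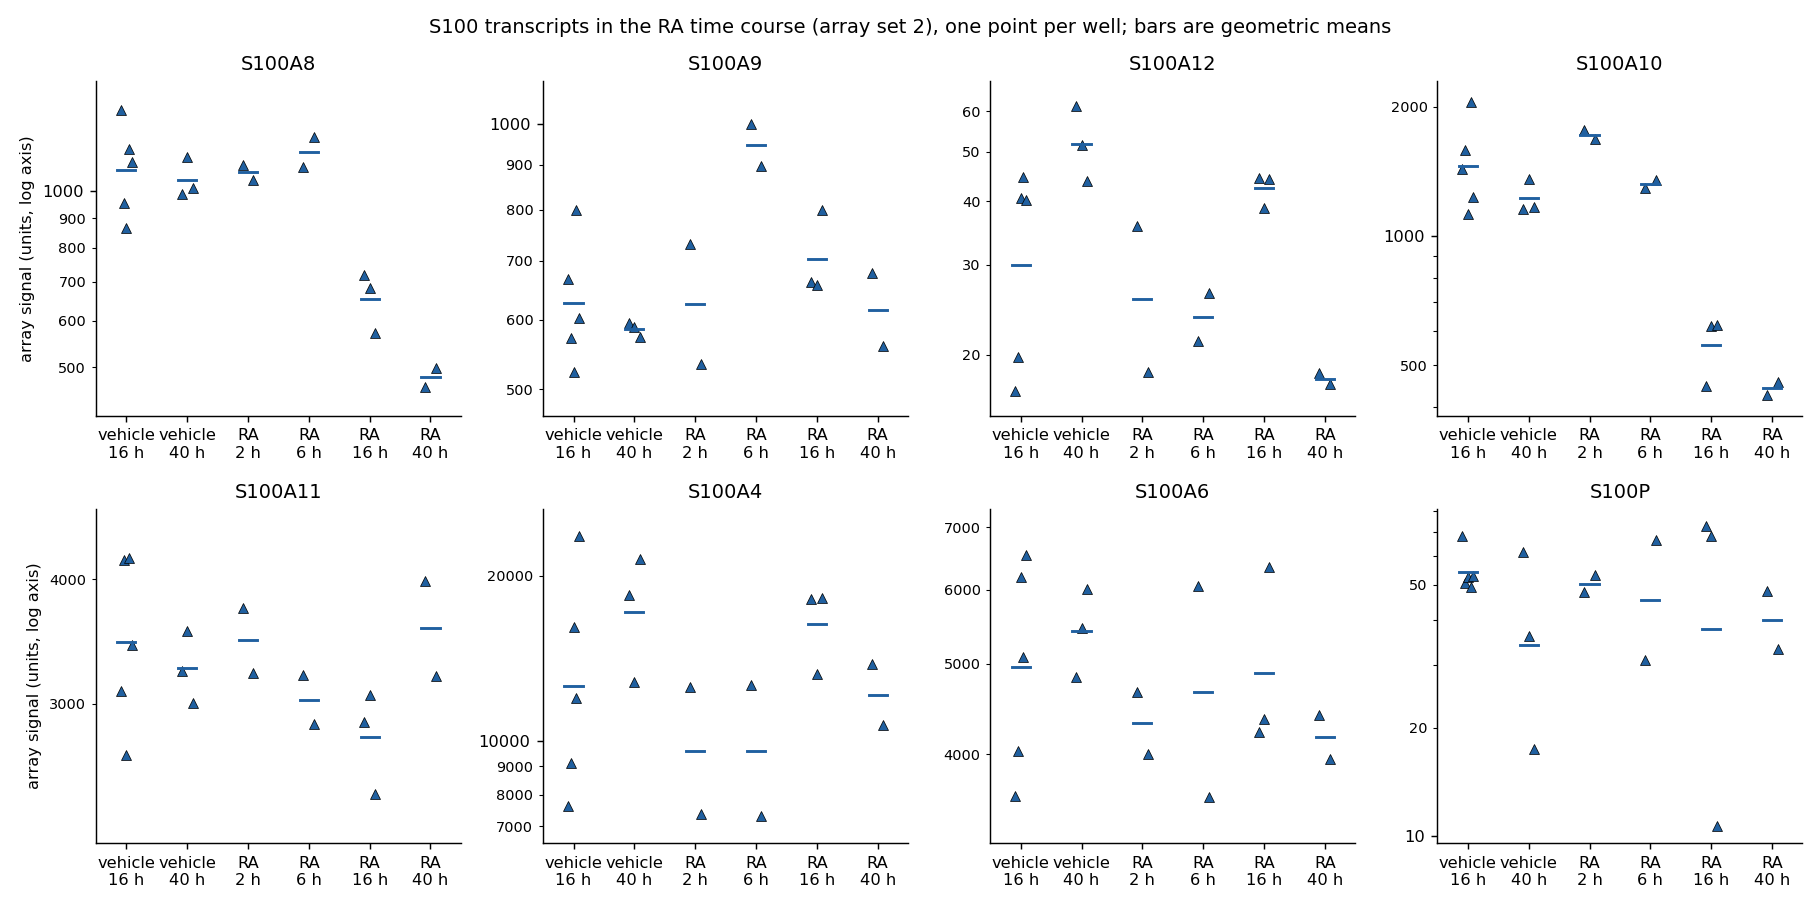
Signals of the 8 genes in array set 2, on log axes in array units, in vehicle wells harvested at 16 h and 40 h and after 2 h, 6 h, 16 h and 40 h of RA, with bars at geometric means. S100A10 and S100A8 hold the vehicle level at 2 h and 6 h and are below all vehicle wells at 16 h and 40 h, and S100A9 is above them at 6 h.

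In the time course, S100A10 and S100A8 were lower only at the late times and S100A9 was higher at 6 h. RA wells were set against 8 vehicle wells of array set 2, 5 harvested at 16 h and 3 at 40 h. No vehicle well was harvested at 2 h or 6 h, so RA and time in culture cannot be told apart at those times. On the deposited scale, the median log2 change over all 22961 probe sets tested was 0.34 after 2 h of RA and 0.39 after 6 h. It stood at -0.17 by 16 h and 0.14 by 40 h, so changes are given relative to it, with adjusted p-values of the deposited values. Array medians averaged 23.3 and 22.2 units in the 2 h and 6 h wells, below the 29.4 units of the 16 h vehicle wells. On recovered signals, without median centring, the median change was 0.006 in the 2 h wells and -0.02 in the 6 h wells. In that fit 461 probe sets were called higher after 6 h and 212 lower, against 1351 and 27 on deposited values. The 2 wells at 40 h are also part of the RA group described above, and the vehicle wells at 40 h are shared too. The log2 3' to 5' ratio of beta-actin averaged 0.22 and 0.21 in the 2 h and 6 h wells, 0.77 in the 16 h RA wells and 0.43 in the 16 h vehicle wells, and its part in the time-course changes was not tested.

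At 2 h, 0 of 8 genes were called, where 0.623% of all probe sets were called higher and 0.0218% lower (limma), and S100A10 had the lowest p of the 8 with 1762 and 1687 units and a relative change of 0.33 (adjusted p = 0.207). An unadjusted p under 0.05 was reached by 1 of the 8, beside 18.4% of all probe sets. At 6 h S100A9 was called higher and none lower, beside 5.88% higher and 0.118% lower. It read 1000.1 and 896 units, above all 8 vehicle wells at 523 to 800.1, with a relative rise of 0.65 (log2 1.04 ± 0.20 as deposited, n = 2 against 8, adjusted p = 0.00166). Without the second 6 h well the relative rise was 0.71 and the call was lost (adjusted p = 0.162), in a fit where the lone well is assumed to vary like the other groups. S100A8, at 1102 and 1239 units, was within the vehicle range of 864 to 1379 at that time, with a relative change of 0.15 (adjusted p = 0.098), and S100A10, at 1294 and 1347, was within its range of 1125 to 2051.

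At 16 h, 2 genes were called lower, S100A10 and S100A8, and 0 higher, where 1.92% of all probe sets were called higher and 3.40% lower. S100A10 read 448, 618 and 621 units, below every vehicle well, with a relative fall of 1.26 on the log2 scale (-1.26, adjusted p = 6.37e-05). S100A8 read 718, 685 and 572 units, also below every vehicle well, with a relative change of -0.68 (adjusted p = 0.00235). S100A9 was at 662, 657 and 798 units, within the vehicle range (0.23, adjusted p = 0.881). S100A12, at 44.5, 38.8 and 44.1 units, was not lower at 16 h than the vehicle wells of that harvest, which had 17.0, 19.8, 40.6, 44.6 and 40.1.

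At 40 h in array set 2 the same 2 genes were called lower, S100A10 with a relative change of -1.61 (adjusted p = 0.000283) and S100A8 with -1.14 (adjusted p = 0.00185), and none higher, beside 3.41% called higher and 0.54% lower over all. Without RA well 4 the relative change of S100A8 was -1.10 and its call was lost (adjusted p = 0.141), again with a lone well assumed to vary like the other groups. S100A12 gave -1.02 and did not pass (adjusted p = 0.566). The gap between S100A8 and S100A9 against vehicle was -0.03 after 2 h of RA, -0.51 after 6 h, -0.91 after 16 h and -1.17 after 40 h (exact permutation p = 0.889, 0.0222, 0.00606 and 0.0222, adjusted p = 0.889, 0.0333, 0.0136 and 0.0333 over the same 9 comparisons). For 2 wells against 8, 0.0222 is the smallest p that the 45 arrangements can give. S100A11, S100A4, S100A6 and S100P were not called at any time, with relative changes between -0.57 (S100A4 at 2 h) and 0.24 (S100A4 at 16 h).

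Receptors and their signalling partners were followed through 9 genes, of which 8 were on the array and tested. Under RA, 2 rose and 0 fell: CD36, a scavenger receptor that binds the S100A8 and S100A9 complex with its fatty acid cargo (1.52 ± 0.21, adjusted p = 6.01e-06), and ALCAM, an adhesion receptor related to RAGE (0.61 ± 0.16, adjusted p = 0.0293). Under TNF, 2 rose and 0 fell, LY96, the co-receptor of TLR4 (1.65 ± 0.48, adjusted p = 0.023), and MYD88, its adaptor (0.74 ± 0.18, adjusted p = 0.00508). RA plus TNF raised CD36 (3.04 ± 0.21), LY96 (3.44 ± 0.48) and MYD88 (0.87 ± 0.18) over vehicle and lowered ALCAM (-0.51 ± 0.16), with adjusted p-values up to 0.0275. AGER, the RAGE gene, gave 0.74 ± 0.77 under RA and -1.66 ± 0.77 under TNF (adjusted p = 0.817 and 0.207). The median change of the list was 0.42 under RA and -0.13 under TNF, against 0.02 and 0.01 over all probe sets. Of all probe sets, 2.35% were called higher and 0.936% lower under RA, and 5.31% and 3.25% under TNF. With both agents against vehicle these shares were 10.3% and 5.92%. Shares throughout are over all probe sets, while counts of the 8 genes and of each list use 1 probe set per gene, so they are not like for like. In a fit with 1 probe set per gene, 343 of 12393 were called higher and 170 lower under RA. Under TNF these counts were 829 and 572, and with both agents against vehicle 1445 and 919.

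Of 23 binding partners, 20 were tested, and 3 rose and 2 fell under RA. The 3 that rose were NCF1 and CYBB, subunits of the phagocyte oxidase that calprotectin supports, and PLAUR, the urokinase receptor (0.82 ± 0.20, adjusted p = 0.0136), and the 2 that fell were ANXA2 and AHNAK. NCF1 rose by 2.42 ± 0.22 (adjusted p = 1.58e-09), and this probe set may also read near-identical copies of the gene, so its share is uncertain. Under TNF, 4 rose (CYBB by 3.41 ± 0.23, PLAUR by 2.10 ± 0.20, NCF1 and ANXA2) and 3 fell (ANXA1, NCF4 and TPM1). With both agents against vehicle 4 rose, among them CYBB by 4.58 ± 0.23, and 3 fell, AHNAK, ANXA11 and PLAU. At 16 h of RA, 4 partners fell, ANXA2, AHNAK, ANXA11 and EZR. ANXA2 and AHNAK fell by 1.30 and 1.24 relative to the median shift (-1.30 and -1.24). The adjusted p-values of their deposited changes were 1.64e-06 and 3.27e-05 (limma). The list medians were -0.14 under RA and 0.05 under TNF. Of all probe sets, 2.35% were called higher and 0.936% lower under RA, and 5.31% and 3.25% under TNF. These shares were 10.3% and 5.92% with both agents against vehicle, and 1.92% and 3.4% at 16 h of RA.

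Among 15 transcription factors known to act at S100A8 and S100A9, RA lowered 2, CEBPD (-0.56 ± 0.15, adjusted p = 0.0366) and FOS (-0.83 ± 0.22, adjusted p = 0.0261), and raised 0. TNF raised 4, ATF3, CEBPB (0.78 ± 0.20), KLF4 (0.88 ± 0.18, while a further KLF4 probe set gave 1.38 ± 0.55 and did not pass) and NFKB1 (1.26 ± 0.17, adjusted p = 1.95e-06), and lowered 0. With both agents 8 rose over RA alone and 0 fell, where 6.28% of all probe sets were called higher and 3.92% lower. CEBPD, a C/EBP family member induced in inflammation, was the only gene of the list with a called interaction (1.33 ± 0.22, adjusted p = 0.00229). It stood at 2377 ± 496 units in vehicle (SD, n = 6), 1609 ± 248 with RA, 2382 ± 303 with TNF and 3948 ± 853 with both (SD, n = 5 each). CEBPB was higher in the 2 h and 6 h RA wells than in the vehicle wells of later harvest, by 0.52 and 0.53 relative to the median shift. The adjusted p-values of its deposited changes, with the shift still in them, were 0.0369 and 0.0052 (limma). The list medians were -0.02 under RA and 0.39 under TNF. Of all probe sets, 2.35% were called higher and 0.936% lower under RA, and 5.31% and 3.25% under TNF. The interaction was called higher for 0.167% and lower for 0.119%. At 2 h of RA 0.623% were called higher and 0.0218% lower, and at 6 h 5.88% and 0.118%.

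Of a list of 14 further genes, S100 family members and the S100P binding protein S100PBP, 13 were on the array and 6 were bright enough in the 40 h comparisons, where 0 rose and 0 fell. In the time course 1 of 5 passed, S100PBP, lower at 16 h, where 3.4% of all probe sets were called lower. Its change was -0.69 relative to the median shift, with adjusted p = 0.0197 for the deposited change (limma). A further probe set of it gave -0.33 and did not pass (adjusted p = 0.228). Among 20 other tested calcium-binding proteins 1 rose and 1 fell under RA, HSPA5, a chaperone of the endoplasmic reticulum (0.55 ± 0.15, adjusted p = 0.0334, though a dimmer probe set gave 0.30 and did not pass), and CAPN2, the catalytic subunit of a calpain (-0.95 ± 0.17, adjusted p = 0.000465). TNF raised 2 of them, RCN1 (1.99 ± 0.22) and HSPA5, and lowered 2, NUCB2 (-1.71 ± 0.15) and RCN2. Of all probe sets, 2.35% were called higher and 0.936% lower under RA, and 5.31% and 3.25% under TNF. With both agents 7 rose and 3 fell against vehicle, beside 10.3% and 5.92% of all probe sets. Against RA alone 5 rose and 2 fell, beside 6.28% and 3.92%, and against TNF alone 3 and 1, beside 3.85% and 2.41%. The RA and TNF counts are too small among 20 genes to be read as a result about the list, and the larger counts were not tested.

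The genes most like each S100 transcript across the 21 arrays of the 40 h groups were ranked by Pearson's r after the mean of each array set was removed. The arrays share 4 treatments, so these values describe the pattern and carry no test. For S100A10 they were SH3BP5 (r = 0.940), CAPN2 (0.933) and the actin-severing protein GSN (0.931). S100A8 was most like RAB7B (0.936), ANXA2 (0.921) and POLR1F (0.918), and S100A9 like FKBP5 (0.965), NIT2 (0.961) and SRM (0.950). S100A4 and S100A6 shared RNASE2 (0.930 and 0.927), and S100A6 was itself second for S100A4 (0.915). For S100A12 they were TNFAIP8 (0.860), CD44 (0.842) and TMEM176B (0.839). S100A11 was most like BRK1 (0.842), LRP10 (0.830) and CYSTM1 (0.824), and S100P like ING3 (0.882), SCAND2P (0.822) and CCDC174 (0.816).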

How the data were processed

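Total RNA from THP-1 wells was measured on 33 arrays. Signals came from GCOS, the Affymetrix array software (version not given in the sources used here), per the submitters' processing notes, and the deposited log2 values are log2 of signal over array median, as read from the values. Signals were recovered from each array's lowest value, taken as 1 unit: 100% of those under 8 units were multiples of 0.1 within 0.00467. The 41097 probe sets with 1 gene symbol in GEO's platform table were used, and 1801 with several and 11777 with none were not. Probe sets with a mean below the median of all (0.882 and 0.891 of the array median in the 40 h and time-course fits) were left out.

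Linear models were fitted with limma 3.58.1 (R 4.3.3) with an intensity trend and Benjamini-Hochberg adjustment over all probe sets tested, with the array set as a covariate at 40 h (21 arrays, 16 residual degrees of freedom) and without one in the time course (17 arrays, 12). S100A8 minus S100A9 was tested by exact two-sided permutation within array sets. Alternatives were no filter, quantile normalization, recovered signals, no array set covariate, single array sets, 1 probe set per gene, vehicle wells of either harvest alone in the time course, a replicate block and each well left out. Errors beside log2 changes are standard errors. The number of arrays limits the precision. Code was tested on simulated data. The gene lists and named genes followed a rule: all probe sets of the 8 genes were described, and each list gave at most 4 genes per comparison, by lowest adjusted p, from the brightest probe set of a gene. A few further list genes were named after their values were seen. Members and lists were chosen with earlier results of these data known. Some vehicle wells are titled as 0 h while their treatment text gives 16 h or 40 h, which was used.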

Additional observations from a re-analysis of the deposited data

Results flagged for a closer look

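In 55 groups of 5 or 6 wells (11 probe sets by 5 groups), 4 held a well apart from the rest, where chance gives about 1 in 20. The gap to the nearest well, as a share of the group's range on the log2 scale, was 0.929 for the dim S100A6 probe set in RA plus TNF well 3 (1.7 units, others 22.9 to 33.3), and 0.646 for the dim S100A8 probe set in vehicle well 4 at 40 h (1.9 units, others 16.7 to 42.5). It was 0.717 for S100A10 in RA plus TNF well 4 (374 units, others 453 to 614) and 0.715 for S100P in RA plus TNF well 2 (2.4 units, others 37.7 to 94.3).

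S100A8 ran in opposite directions in the array sets. With RA plus TNF against vehicle every well was above vehicle in set 1 and below it in set 2 on the deposited scale, a log2 difference of 1.29 between sets, and against TNF the same held with 1.52. These differences were not tested. The effect of RA on CEBPD differed with and without TNF (interaction 1.33, limma adjusted p = 0.00229).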

How the results depend on the processing

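Over 576 values of the 8 genes under other settings, 540 kept their side of the threshold, 21 lost a call and 15 gained 1, and over 1552 values with a single well left out the numbers were 1520, 28 and 4. In both cases 0 changed direction across a call. The counts of called genes that moved by more than 1.5 times were as follows. Under RA at 40 h (4 called) there were 2 with no filter on dim probe sets, 1 without the array set covariate, 2 in array set 2 alone, and 2 to 4 with single wells left out. TNF (3 called) had 1 without the covariate. RA plus TNF against TNF (1 called) had 3 with quantile normalization, 2 on recovered signals without median centring and 4 in array set 2. RA plus TNF against RA (4 called) had 2 without the covariate and 1 in array set 2. The interaction (0 called) had 1 in array set 1, S100A8, and 0 to 1 with single wells left out. With single wells left out, 6 h had 0 to 2 (S100A8 was gained without the first 6 h well, 0.23 relative to the median shift, with a lone well left in the group) and 40 h in set 2 had 1 to 2. The cause of these changes was not tested.

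Replicate numbers were not taken as pairs: same-numbered wells correlated at -0.157 to 0.0122 in the 40 h groups and at -0.07 to 0.118 in the time course, where 3 of 17 pairs were over 0.1. With a replicate block, RA had 3 called genes (S100A6 was lost, -0.56, adjusted p = 0.0784) and the counts of the other comparisons were those of the fit without it.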
